A study of Mus musculus with 16 samples.

Results

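The solute carriers described here bring amino acids, sugars, creatine, taurine and monocarboxylates such as lactate across the membranes of mouse alveolar rhabdomyosarcoma (aRMS) cells. They were taken by symbol, as every probe whose platform annotation names a gene of the families SLC1, SLC2, SLC3, SLC6, SLC7, SLC16, SLC36, SLC38 or SLC43, which gave 112 of 25697 probes and 77 of 16593 named genes.

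The arrays held RNA of cultured tumor cells from the conditional Myf6Cre, Pax3:Foxo1a, p53 mouse model. The cells were grown in DMEM with 10% FBS and transfected with 10 nM siYFP or with a control siRNA in 0.2% lipofectamine2000. The fusion gene of this model carries an eYFP reporter on the same transcript, so siYFP (knockdown) acts on the Pax3:Foxo1a mRNA, and all groups share the Cre driver, the fusion and the p53 alleles. Cells were stained with Hoechst33342 in the presence of reserpine and sorted by DNA content into 2N (G1/G0), 3N (S) and 4N (G2/M) fractions. There were 3 knockdown arrays against 3 control arrays in 2N cells, 2 against 2 in 3N cells and 3 against 3 in 4N cells, 1 from each of experiments 1 to 3, with 3N cells from experiments 1 and 2 only. The sources used here do not name the culture hybridised, the concentration of the control siRNA or the hours from transfection to sorting. Since 1 siRNA was aimed at the fusion, a response to the duplex itself and the loss of Pax3:Foxo1a cannot be told apart. Whether the experiments shared 1 tumor culture is not stated. The p-values rest on the spread between experiments within a group, shared over all groups of a fit. Except where experiment is named as a block, they do not use the pairing of arrays by experiment. No p-value is read as a spread between tumors.

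These carriers set what a dividing cell can take up and release. Members of SLC2 carry glucose and related sugars by facilitated diffusion, those of SLC16 include the proton-coupled carriers of lactate and pyruvate, and SLC1, SLC6, SLC7, SLC36, SLC38 and SLC43 move amino acids or their derivatives. Slc3a2 is the heavy chain that brings several SLC7 light chains to the plasma membrane. In skeletal muscle, insulin moves the Slc2a4 product to the surface, and Slc6a8 supplies creatine for the phosphocreatine store. PAX3:FOXO1 is an oncogenic transcription factor of aRMS.

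On the 16 arrays 12535 to 13135 probes were detected (detection p under 0.05), and replicate arrays of a group correlated at 0.9923 to 0.9955. The Foxo1 probe lay at 8.23 to 8.69, 8.44 to 8.61 and 8.61 to 9.04 on the log2 scale in 2N, 3N and 4N knockdown cells, against 9.24 to 9.39, 9.34 to 9.49 and 9.38 to 9.62 in controls, with differences of −0.85 ± 0.14, −0.90 ± 0.17 and −0.70 ± 0.14 (SE; adjusted p = 0.00142, 0.00283 and 0.00503). Which side of the breakpoint it reads is not stated, and the Pax3 probe was detected on no array. Of 8 myogenic markers 7 had a probe. Chrna1, Des, Myf5 and Myog were detected on at least 3 arrays, and Myod1, a defining gene of the muscle lineage, on none. None of the 7 endothelial markers with a probe was detected on any array.

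Of the 77 transporter genes, 34 were detected on no array and 6 more on at most 2, which left 37 genes with a probe detected on at least 3 arrays in both the fit of 2N and 4N arrays and the fit of all 16. The tested genes were 3 of 7 in SLC1, 7 of 11 in SLC2, the 1 gene of SLC3, 4 of 16 in SLC6, 7 of 15 in SLC7, 6 of 12 in SLC16, 2 of 3 in SLC36, 6 of 10 in SLC38 and 1 of 2 in SLC43. Among the 40 genes not tested were Slc1a5, a glutamine and neutral amino acid exchanger detected on 1 array, Slc7a1, the widely expressed cationic amino acid carrier, also on 1, and Slc16a1, a lactate carrier, on none. The others were Slc1a1, Slc1a2, Slc1a7, Slc2a2, Slc2a5, Slc2a9, Slc2a12, Slc6a2, Slc6a3, Slc6a4, Slc6a5, Slc6a7, Slc6a11, Slc6a12, Slc6a13, Slc6a14, Slc6a15, Slc6a17, Slc6a21, Slc7a8, Slc7a9, Slc7a10, Slc7a12, Slc7a13, Slc7a14, Slc7a15, Slc16a7, Slc16a8, Slc16a10, Slc16a12, Slc16a14, Slc36a3, Slc38a3, Slc38a5, Slc38a8, Slc38a11 and Slc43a3. A probe not above background gives no measure of its gene, so nothing is said of their change.

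After knockdown, 3 transporter genes changed in cells of every DNA content: Slc16a4 and Slc6a8 rose and Slc16a13 fell. Slc2a1 and Slc2a4, the basal and the insulin-responsive glucose carriers, rose in 3N and 4N cells, and Slc38a7 rose in 3N cells. In 2N cells Slc7a4 rose and Slc2a6 fell. In counts, 3 of 37 rose and 2 fell in 2N cells, where 10.9% of all genes tested rose and 10.4% fell, or 21.4% in either direction (limma, Benjamini-Hochberg adjusted p under 0.05). In 3N cells 5 rose and 1 fell, beside 6.46% and 6.47% of all genes, or 12.9% in either direction. In 4N cells 4 rose and 1 fell, beside 9.83% and 9.27%, or 19.1%. The called shares of the transporters, 13.5% in 2N, 16.2% in 3N and 13.5% in 4N cells, stood near these backgrounds. Knockdown and control arrays did not overlap for 10, 18 and 11 of the 37 in 2N, 3N and 4N cells, beside 36.3%, 53% and 37.1% of all genes. The median log2 difference of the 37 was 0.06, 0.15 and 0.11, against −0.01 over all genes in each. All values are relative to the array as a whole, and in sorted bulk RNA fewer cells of a type and less RNA per cell cannot be told apart.

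**Figure D1:**
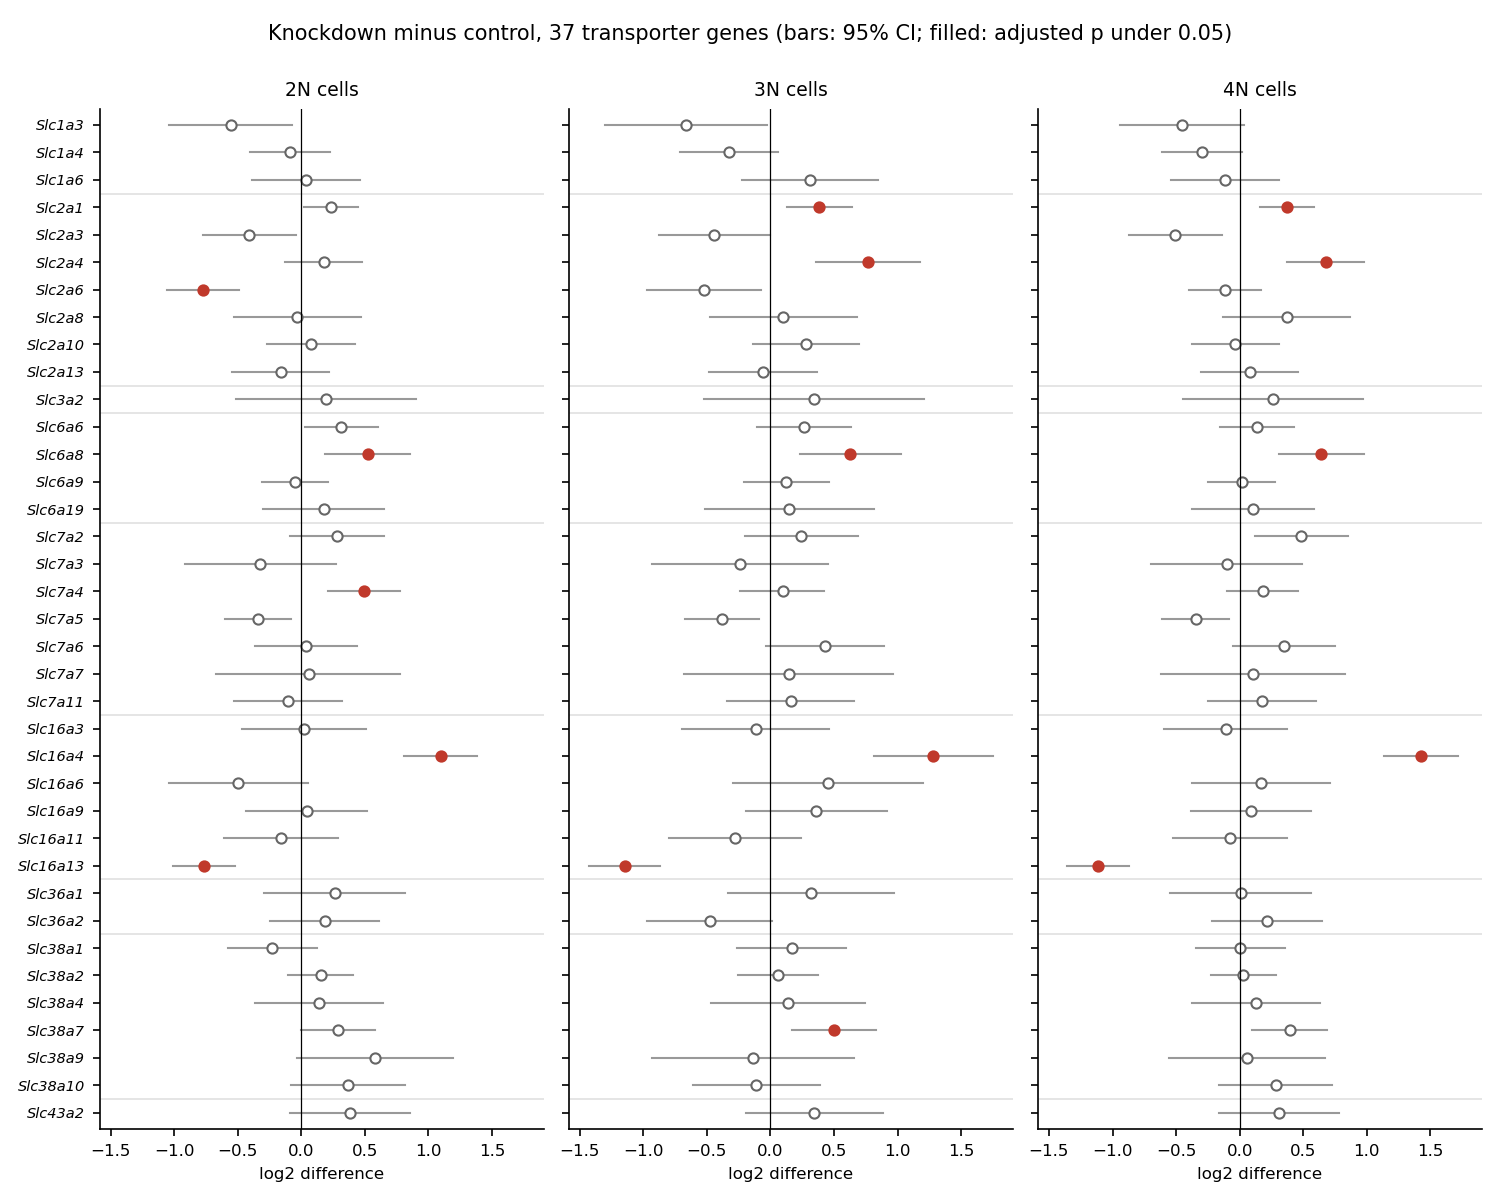
Log2 difference of knockdown minus control for the 37 tested transporter genes in 2N, 3N and 4N cells, with 95% confidence intervals from limma, grouped by family. Filled points passed an adjusted p of 0.05. Slc16a4, at 1.10, 1.28 and 1.43, lies to the right of all others and Slc16a13, at −0.77, −1.15 and −1.11, to the left, except that Slc2a6 reached −0.78 in 2N cells.

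The monocarboxylate family held both the largest rise and the largest falls in 3N and 4N cells. Slc16a4, a family member whose substrates are not settled, measured 8.54, 8.75 and 8.27 on the log2 intensity scale in 2N knockdown cells of experiments 1, 2 and 3, against 7.28, 7.46 and 7.52 in 2N controls. In 3N cells of experiments 1 and 2 it measured 8.03 and 8.02 after knockdown, against 7.16 and 6.33 in controls. In 4N cells it measured 7.27, 7.57 and 7.34 after knockdown, against 6.05, 5.98 and 5.87 in controls. Every knockdown array lay above every control array of the same DNA content, and the 4N controls were lowest of all, close to the lowest detected signals of those arrays (5.71 to 5.77). Slc16a4 was 2.14-fold higher in 2N (log2 1.10 ± 0.13 SE, adjusted p = 0.000174), 2.43-fold in 3N (1.28 ± 0.22, 0.00147) and 2.69-fold in 4N knockdown cells (1.43 ± 0.13, 2.86e-05). Without background correction the differences were 0.78, 0.79 and 0.73 and still called, so the order of the 3 sizes rests on that correction.

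Slc16a13, a family member reported to carry lactate in mouse liver, went the other way. It measured 6.77, 6.53 and 6.69 in 2N knockdown cells, against 7.35, 7.37 and 7.56 in 2N controls. In 3N cells the values were 6.26 and 6.25 after knockdown, against 7.49 and 7.31 in controls, and in 4N cells 6.67, 6.41 and 6.38 after knockdown, against 7.60, 7.67 and 7.53 in controls. No knockdown array reached any control array. It was 1.70-fold lower in 2N (log2 −0.77 ± 0.11 SE, adjusted p = 0.000545), 2.22-fold lower in 3N (−1.15 ± 0.13, 6.44e-05) and 2.16-fold lower in 4N knockdown cells (−1.11 ± 0.11, 4.37e-05). Without background correction these were −0.44, −0.61 and −0.63, all called. Of the other 4 tested members none passed the test after knockdown. Slc16a6, which exports a ketone body from zebrafish liver, had 3 probes above background. With the brightest named first, they differed by −0.49, −0.40 and −0.43 in 2N cells and by 0.46, 0.55 and 0.37 in 3N cells. In 4N cells their signs were mixed, at 0.17, −0.048 and −0.235. In 2N cells the brightest passed with experiment as a block (adjusted p = 0.0307, against 0.189 without). Slc16a3, the lactate exporter of glycolytic cells, was at 5.26 to 6.31 on all arrays and differed by 0.02, −0.12 and −0.11 in 2N, 3N and 4N cells. Its probe was detected on 13 of 16 arrays, near the lowest detected signals (5.62 to 5.81), and its other probes on none. These differences therefore do not show that Slc16a3 was unchanged.

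Among glucose carriers Slc2a1, Slc2a4 and Slc2a6 were called. Slc2a1, which carries basal glucose uptake in most cells, measured 12.60 and 12.37 in 3N knockdown cells against 12.07 and 12.13 in 3N controls, and 12.33, 12.09 and 12.33 in 4N knockdown cells against 11.83, 11.84 and 11.96 in 4N controls. In 2N cells it measured 12.39, 12.28 and 12.37 after knockdown, against 12.06, 12.20 and 12.07 in controls. Knockdown arrays were above control arrays in all 3 fractions, by 1.18-fold in 2N (adjusted p = 0.113, not called), 1.30-fold in 3N (log2 0.38 ± 0.12 SE, adjusted p = 0.0488) and 1.30-fold in 4N cells (0.38 ± 0.10, 0.0186). The 4N call was lost with median scaling (adjusted p = 0.244) and without the control arrays of experiment 1 or 2 or the knockdown arrays of experiment 1 or 3 (0.0554 to 0.0735). The 3N call held only when the 2N control or the 4N knockdown array of experiment 2 was the one left out, with an adjusted p of up to 0.311 without another.

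Slc2a4, the insulin-responsive carrier of muscle and fat, measured 7.37 and 6.97 in 3N knockdown cells against 6.60 and 6.21 in 3N controls, and 7.33, 6.92 and 6.94 in 4N knockdown cells against 6.59, 6.35 and 6.22 in 4N controls. In 2N cells it measured 7.07, 6.92 and 6.85 after knockdown, against 6.77, 6.92 and 6.62 in controls. The groups were apart in 3N and 4N cells and overlapped in 2N cells. Slc2a4 was 1.70-fold higher in 3N (log2 0.77 ± 0.19 SE, adjusted p = 0.0162) and 1.6-fold higher in 4N knockdown cells (0.68 ± 0.14, 0.0054), and differed by 0.18 ± 0.14 in 2N cells (0.419). Without background correction the 3N and 4N differences were 0.40 and 0.35. The 3N call was lost without the 3N knockdown array of experiment 1 (adjusted p = 0.156) or the 3N control array of experiment 2 (0.147).

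Slc2a6, a sugar carrier family member found on lysosomes of mouse macrophages, measured 7.94, 8.27 and 8.26 in 2N knockdown cells, against 9.0, 8.88 and 8.91 in 2N controls, and was 1.71-fold lower (log2 −0.78 ± 0.13 SE, adjusted p = 0.0014). In 3N cells it measured 7.79 and 8.27 after knockdown against 8.25 and 8.86 in controls (−0.52 ± 0.21, adjusted p = 0.127, 0.0438 with experiment as a block and 0.0366 without the 3N control array of experiment 1). In 4N cells it measured 8.09, 8.44 and 8.58 after knockdown, against 8.48, 8.45 and 8.53 in controls. The 2N groups were far apart and the 4N groups overlapped (−0.12 ± 0.13, adjusted p = 0.598). Slc2a3, a high-affinity glucose carrier, was not called: it measured 10.65, 10.71 and 10.75 in 4N knockdown cells against 11.19, 11.45 and 11 in 4N controls, a difference of −0.51 ± 0.17 (adjusted p = 0.0537, and 0.0369 with experiment as a block). It was called lower there with the authors' values or no background correction (−0.48, adjusted p = 0.026 each) and with median scaling (−0.62, 0.047). Slc2a8, Slc2a10 and Slc2a13 were not called in any comparison.

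The promoter is shown for the called genes of the 2N and 4N knockdown comparisons that the RefSeq table holds, so that the letters around each start can be set beside the values above. Each run covers 250 bases before to 50 after an annotated start (GRCm38.p6, 5′ to 3′ on the gene's strand). Capitals mark TATAAA and CCAAT on either strand.
Slc16a4, chr3:107290980-107291279, plus strand: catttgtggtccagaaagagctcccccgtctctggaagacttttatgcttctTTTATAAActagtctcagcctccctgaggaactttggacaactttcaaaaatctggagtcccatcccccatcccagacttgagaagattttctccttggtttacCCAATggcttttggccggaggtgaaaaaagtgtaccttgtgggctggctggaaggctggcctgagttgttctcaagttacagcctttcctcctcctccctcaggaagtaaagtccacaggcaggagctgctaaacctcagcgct
Slc2a1, chr4:119108495-119108794, plus strand: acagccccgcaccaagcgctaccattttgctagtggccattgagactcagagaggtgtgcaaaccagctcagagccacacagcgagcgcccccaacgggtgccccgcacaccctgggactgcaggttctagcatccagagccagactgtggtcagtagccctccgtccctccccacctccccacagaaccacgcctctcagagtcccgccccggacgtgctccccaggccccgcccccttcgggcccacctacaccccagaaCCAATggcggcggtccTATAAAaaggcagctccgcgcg
Slc2a6, chr2:27027949-27028248, minus strand: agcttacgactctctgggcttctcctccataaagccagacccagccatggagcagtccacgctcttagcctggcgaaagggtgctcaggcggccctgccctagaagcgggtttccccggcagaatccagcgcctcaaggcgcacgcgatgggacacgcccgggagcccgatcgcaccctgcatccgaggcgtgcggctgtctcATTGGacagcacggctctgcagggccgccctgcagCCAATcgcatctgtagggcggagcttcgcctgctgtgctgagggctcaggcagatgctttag
Counted from base 1 of each run, TATAAA starts at 279 in Slc2a1 and, on both strands and overlapping, at 53 and 55 in Slc16a4. CCAAT starts at 157 in Slc16a4, 263 in Slc2a1 and 204 and 239 in Slc2a6. Both marked sites of Slc2a1 lie past base 250 and so after its annotated start, while those of Slc16a4 and Slc2a6 lie before theirs. TATAAA is in 13.6% and CCAAT in 37.4% of all 32851 promoters. The motifs GTAAACA (forkhead), GTCACGC (paired domain core) and TGATGNAA (the ATF4 composite site) and the palindromic homeodomain pair motif were searched on both strands as well and are in 3.65%, 2.09%, 3.97% and 0.487% of all promoters. None of them is in the promoters of the 5 called genes that matched (Slc16a4, Slc2a1, Slc2a6, Slc7a6 and Slc38a7), and the E-box CACGTG, in 7.15% of all, is in that of Slc38a7. Of the 37 tested genes 25 matched. TGATGNAA is in the promoters of Slc1a4, Slc7a7 and Slc7a11, and GTAAACA in that of Slc7a11.

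In the amino acid and creatine families, Slc6a8, the creatine carrier, rose in all 3 fractions. It measured 9.95, 9.92 and 9.81 in 2N knockdown cells against 9.33, 9.47 and 9.32 in 2N controls, 9.62 and 9.62 in 3N knockdown cells against 8.83 and 9.16 in 3N controls, and 9.55, 9.72 and 9.90 in 4N knockdown cells against 8.76, 9.44 and 9.03 in 4N controls. No group overlapped its control. Slc6a8 was 1.44-fold higher in 2N (log2 0.52 ± 0.15 SE, adjusted p = 0.0304), 1.55-fold in 3N (0.63 ± 0.19, 0.0386) and 1.56-fold in 4N knockdown cells (0.64 ± 0.15, 0.0122). The 2N call was lost with median scaling (adjusted p = 0.102) and without the 2N control array of experiment 1 or 3 or any 2N knockdown array (0.0503 to 0.0853), and the 4N call without the 4N knockdown array of experiment 3 (0.0506). The 3N call was lost with median scaling or no filter on dim probes (up to 0.108) and without the 3N control array of experiment 1, either 3N knockdown array or the 4N knockdown array of experiment 2 (0.0519 to 0.229).

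Slc7a4, which resembles the cationic amino acid carriers but has no settled substrate, measured 7.80, 7.74 and 7.62 in 2N knockdown cells, against 7.20, 7.30 and 7.19 in 2N controls. It was 1.41-fold higher there (log2 0.49 ± 0.13 SE, adjusted p = 0.0175) and differed by 0.10 ± 0.15 in 3N and 0.18 ± 0.13 in 4N cells, where the groups overlapped. Without background correction the 2N difference was 0.32, still called, and the call was lost without the 2N control array of experiment 1 or 3 or the 2N knockdown array of experiment 1 or 2 (adjusted p = 0.0526 to 0.0597). Slc38a7, which exports glutamine and asparagine from lysosomes, measured 8.74 and 8.78 in 3N knockdown cells, against 8.19 and 8.33 in 3N controls, and was 1.41-fold higher (0.50 ± 0.15, adjusted p = 0.0486). In 4N cells it measured 8.89, 8.77 and 8.76 after knockdown, against 8.46, 8.59 and 8.19 in controls (0.39 ± 0.13, adjusted p = 0.0613, and 0.0317 with experiment as a block). In 2N cells it measured 8.93, 8.77 and 8.60 after knockdown, against 8.32, 8.69 and 8.42 in controls, and the groups overlapped. The 3N call of Slc38a7 was lost in 10 of 16 repeats with 1 array left out, each 3N array among them (adjusted p up to 0.202).

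The heterodimer of Slc7a5 and Slc3a2, which exchanges glutamine for leucine and other large neutral amino acids, was not called. Slc7a5 measured 14.22, 14.12 and 14.03 in 2N knockdown cells against 14.41, 14.67 and 14.29 in 2N controls, 14.08 and 14.07 in 3N knockdown cells against 14.41 and 14.50 in 3N controls, and 14.07, 14.15 and 13.88 in 4N knockdown cells against 14.51, 14.31 and 14.33 in 4N controls. Its knockdown arrays lay below all controls of the same fraction. The differences were −0.34 ± 0.12, −0.38 ± 0.14 and −0.35 ± 0.12 (adjusted p = 0.065, 0.0862 and 0.0634), and with experiment as a block all 3 passed the threshold (0.0296, 0.0309 and 0.0288), as did 2N and 4N cells without background correction (0.0338 and 0.0323) and with the authors' values (0.0345 and 0.0328), and 4N cells with median scaling (0.0357). Slc3a2 ranged over experiments within 1 group, from 10.00 to 11.04 in 4N knockdown cells and from 9.64 to 10.85 in 4N controls, and differed by 0.20 ± 0.33, 0.34 ± 0.40 and 0.26 ± 0.33 in 2N, 3N and 4N cells.

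Slc1a3, a glutamate carrier, differed by −0.56 ± 0.22, −0.67 ± 0.30 and −0.45 ± 0.22 in 2N, 3N and 4N cells (adjusted p = 0.0997, 0.168 and 0.19, and 0.0148, 0.0137 and 0.039 with experiment as a block). Slc7a6, a light chain that exchanges cationic for neutral amino acids, differed by 0.04 ± 0.18, 0.43 ± 0.22 and 0.35 ± 0.18, and passed in 3N and 4N cells with the block (adjusted p = 0.0177 and 0.0147). Slc1a4, a carrier of alanine, serine and cysteine, differed by −0.09 ± 0.14, −0.33 ± 0.18 and −0.30 ± 0.14. Slc38a2, a sodium-coupled carrier of small neutral amino acids, differed by 0.15 ± 0.12, 0.06 ± 0.15 and 0.03 ± 0.12, and Slc38a4, of the same family, by 0.14 ± 0.23, 0.14 ± 0.28 and 0.13 ± 0.23. Slc6a6, the taurine carrier, differed by 0.32 ± 0.13, 0.26 ± 0.17 and 0.14 ± 0.13, and Slc6a9, a glycine carrier, by −0.05 ± 0.12, 0.13 ± 0.16 and 0.02 ± 0.12. Slc7a11, the cystine and glutamate exchanger, differed by −0.11 ± 0.19, 0.16 ± 0.23 and 0.17 ± 0.19. Slc36a2, a proton-coupled carrier of small amino acids, differed by 0.18 ± 0.20, −0.48 ± 0.23 and 0.22 ± 0.20 without a call, and in 3N cells its knockdown arrays (5.98 and 6.06) lay below the controls (6.62 and 6.39). Slc43a2, a carrier of large neutral amino acids, differed by 0.39 ± 0.22, 0.35 ± 0.25 and 0.31 ± 0.22. The other tested genes of the amino acid families, Slc1a6, Slc6a19, Slc36a1, Slc38a1 and Slc38a10, lay between −0.23 and 0.37 in all 3 fractions, and Slc16a9 and Slc16a11 between −0.28 and 0.36.

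A result from 1 probe did not always hold for a second probe of the same gene. Among 6 genes with several probes above background, tested with all detected probes, the dimmer probe of Slc7a2, a cationic amino acid carrier, was 1.6-fold higher in 2N knockdown cells (log2 0.68 ± 0.13 SE, adjusted p = 0.00359), and the brighter one differed by 0.28 ± 0.17 (0.284). For Slc7a7, a light chain that exports cationic amino acids, the dimmer probe was 1.49-fold higher in 2N knockdown cells (0.58 ± 0.14, adjusted p = 0.0141) and the brighter one differed by 0.06 ± 0.33. The dimmer probe of Slc7a3, another cationic amino acid carrier, was undetected in 4N controls and at least 1.15-fold higher in 4N knockdown cells (adjusted p = 0.0359), and the brighter one differed by −0.10 ± 0.27. In the other fractions this dimmer probe lay the other way without a call, by −0.56 ± 0.24 in 3N cells, where the groups did not overlap (adjusted p = 0.156), and by −0.44 ± 0.21 in 2N cells (0.167).

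**Figure D2:**
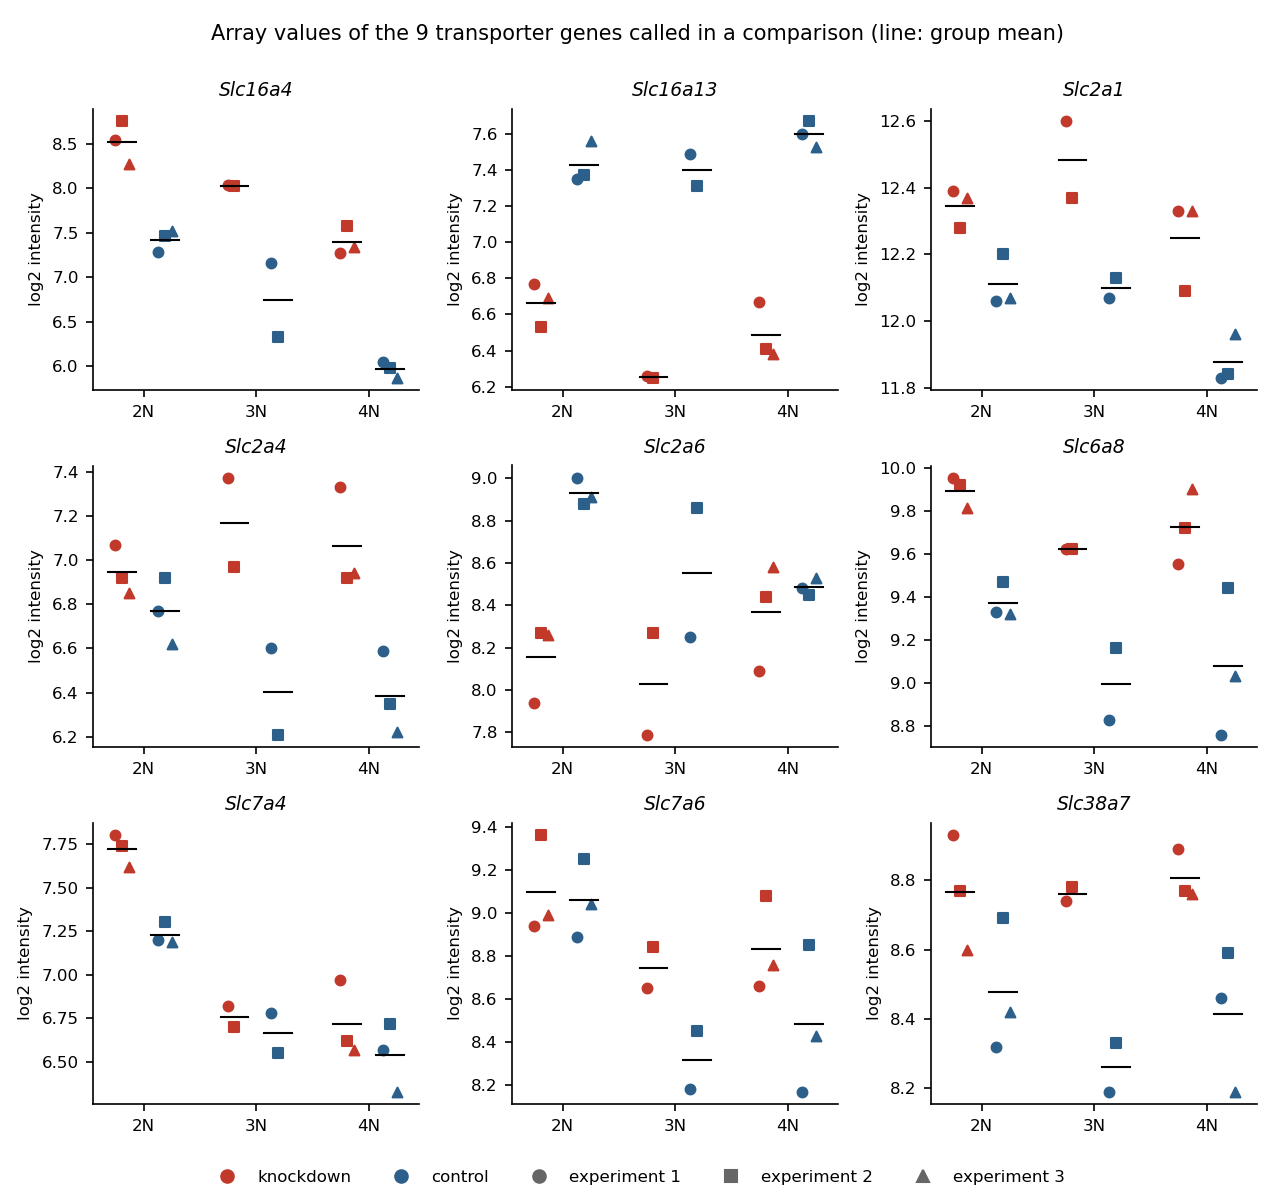
Log2 intensity of the 9 transporter genes called in at least 1 comparison on each of the 16 arrays, by DNA content. Red points are knockdown and blue points control arrays, the marker gives the experiment and the line the group mean, and each panel has its own scale. Slc16a4 is higher and Slc16a13 lower on every knockdown array than on each control array of the same fraction, while Slc2a6 differs in 2N cells and overlaps in 4N cells.

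Markers of cell state moved with the knockdown. The summed linear intensity of the 7 myogenic markers was 3792 to 4796, 3578 to 4155 and 3935 to 4462 in 2N, 3N and 4N knockdown cells, against 5037 to 6718, 4468 to 5505 and 5222 to 6802 in controls. That sum follows its brightest genes, and of the 4 myogenic markers tested Chrna1, a subunit of the muscle acetylcholine receptor, fell in 2N (−0.65 ± 0.15, adjusted p = 0.0101) and 4N cells (−0.53 ± 0.15, 0.03), while Des, a muscle intermediate filament, rose in both (0.52 ± 0.17, 0.0496, and 0.61 ± 0.17, 0.0283). Myf5 and Myog were not called, nor was any of the 4 in 3N cells. The sum of 4 epithelial markers (Cdh1, Cldn4 and Krt14 detected, Krt5 on no array) was 863 to 1151, 1373 to 1450 and 1087 to 1321 after knockdown, against 420 to 460, 541 to 597 and 408 to 539 in controls. Of the 3 epithelial markers tested, 2 were called higher in each fraction. Their median log2 differences, over the 3, were 1.112, 1.436 and 1.496 in 2N, 3N and 4N cells. The sum of 4 erythroid markers was 160 to 189, 153 to 155 and 163 to 186, against 226 to 237, 179 to 185 and 215 to 253, with Alas2 and Hba-a1 on no array. Epor was the only 1 of them tested and was called lower in each fraction (−0.923, −0.579 and −0.885 in 2N, 3N and 4N cells). The erythroid sum is thus no result for a set of genes. Sums of immune markers were 288 to 341 over all knockdown arrays, against 282 to 340 over controls, with Ptprc on no array. Sums of neural markers were 596 to 762, against 523 to 689. Both overlapped in 2N and 4N cells. On the 3N knockdown arrays both were higher (312 to 325 and 614 to 667) than on the 3N controls (282 to 295 and 576 to 589). With 4 immune and 5 neural markers on no array, these sums hold background signal. Only Cd14 and Cd3e of the immune markers were tested, and 1 was called higher in 3N and 1 in 4N cells. Syn1, the only neural marker tested, was called in no fraction. The part of these shifts in the transporter results was not tested.

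Whether the response to knockdown depended on DNA content was tested by the difference between fractions. For 4N minus 2N, 3N minus 2N and 4N minus 3N, 0 of 37 transporter genes passed, beside 0% of all genes. At an unadjusted p under 0.05 (limma) there were 3, 3 and 1 of the 37. Over all genes tested there were 293 of 9146, 353 of 9306 and 185 of 9306 at that threshold. The response of Slc2a6 was higher in 4N than in 2N cells by 0.66 ± 0.19 (unadjusted p = 0.00394, adjusted p = 1) and that of Slc2a4 by 0.50 ± 0.20 (0.0261, 1), while that of Slc16a13 was lower by 0.35 ± 0.16 (0.0468, 1), each in the same direction in 3 of 3 experiments. The presence of a call in 1 fraction and not in another is therefore not shown to be a difference between them.

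Fewer genes differed by DNA content than by knockdown, among the transporters as over all genes tested. Cells in 4N had less Slc16a4 and Slc7a4 RNA than 2N cells, after knockdown and in controls, and these were the 2 of 37 called in each, both lower, beside 5.34% of all genes (1.8% lower) in knockdown and 4.8% (1.84% lower) in control cells. Slc16a4 was 2.18-fold lower in 4N than in 2N knockdown cells (log2 −1.12 ± 0.13 SE, adjusted p = 0.000196) and 2.74-fold lower in 4N than in 2N controls (−1.46 ± 0.13, 2.48e-05), the second being −0.74 without background correction. Slc7a4 measured 6.97, 6.62 and 6.57 in 4N against 7.80, 7.74 and 7.62 in 2N knockdown cells, and 6.57, 6.72 and 6.33 in 4N against 7.20, 7.30 and 7.19 in 2N controls. No 4N array reached a 2N array of the same treatment. It was 2.0-fold lower after knockdown (−1.0 ± 0.13, adjusted p = 0.000414) and 1.61-fold lower in controls (−0.69 ± 0.13, 0.00804), or −0.60 and −0.37 without background correction. Among second probes, 1 of Slc16a6 was called higher in 4N than in 2N knockdown cells (0.70 ± 0.15, adjusted p = 0.0204) and in 3N than in 2N knockdown cells (0.77 ± 0.21, 0.0483), and the dimmer probe of Slc7a7 higher in 4N than in 2N controls (0.57 ± 0.14, 0.0452). With experiment as a block, the brightest Slc16a6 probe was also higher in 4N than in 2N knockdown cells (0.68, adjusted p = 0.0188), and Slc2a6 (−0.44, 0.0457) and Slc7a6 (−0.58, 0.00294) lower in 4N than in 2N controls.

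**Figure D3:**
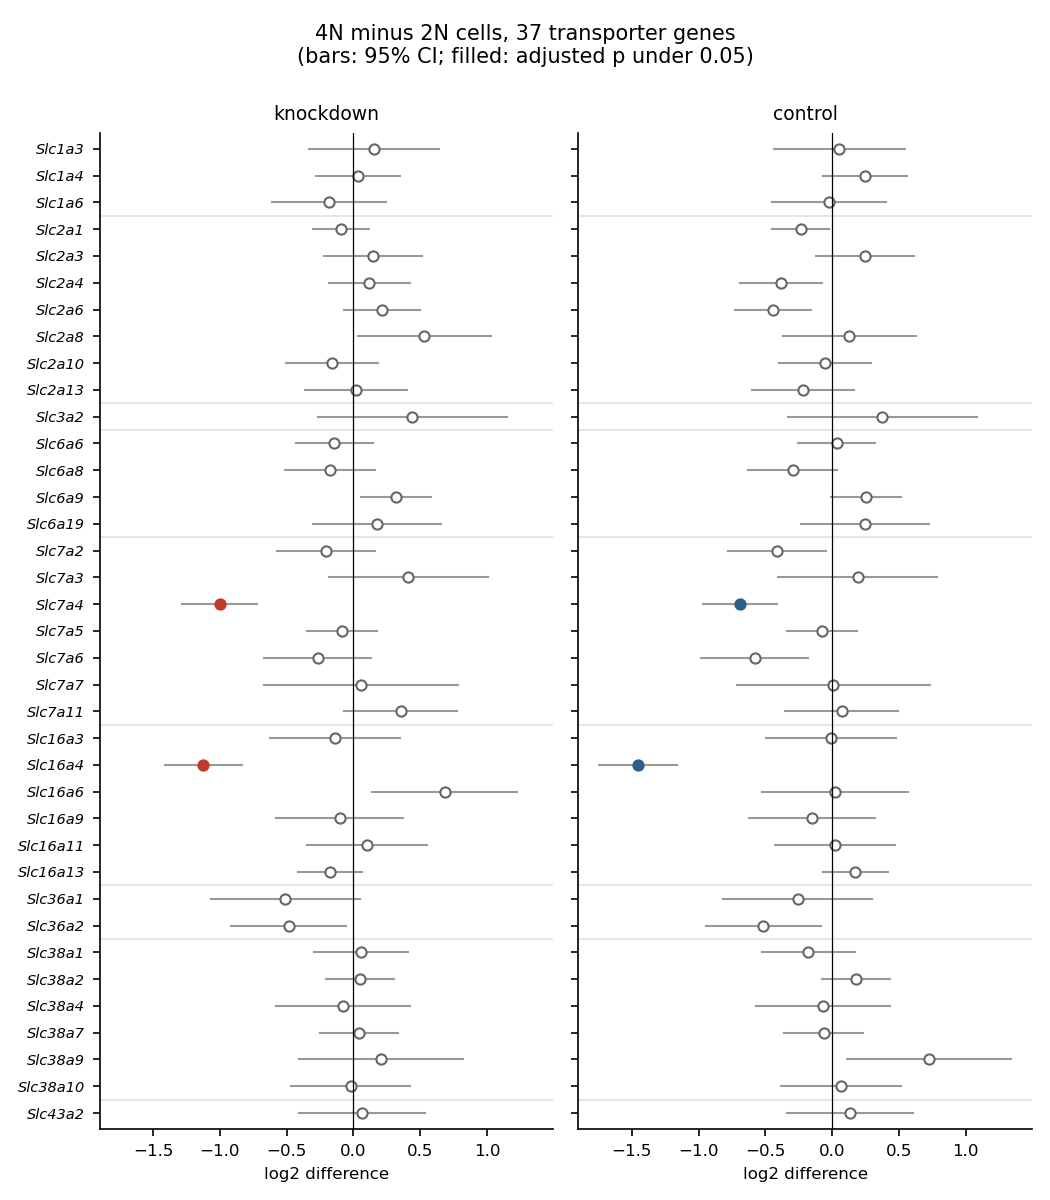
Log2 difference of 4N minus 2N cells for the 37 tested transporter genes after knockdown (left, red where called) and in controls (right, blue where called), with 95% confidence intervals from limma. Slc16a4, at −1.12 and −1.46, and Slc7a4, at −1.0 and −0.69, are the filled points in both panels.

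Slc7a4 was already low in 3N cells. It measured 6.82 and 6.70 in 3N knockdown cells and 6.78 and 6.55 in 3N controls, and was the 1 of 37 transporters called for 3N minus 2N after knockdown (log2 −0.96 ± 0.14 SE, adjusted p = 0.000567), beside 6.1% of all genes (2.33% lower). In controls, Slc7a4 (−0.56 ± 0.14, 0.0317) and Slc7a6 (−0.75 ± 0.20, 0.0455) were the 2 called, both lower, beside 4.81% (1.55% lower). Slc7a6 measured 8.18 and 8.45 in 3N controls against 8.89, 9.25 and 9.04 in 2N controls, and the arrays did not overlap. The Slc7a6 call was lost in 12 of 16 repeats with 1 array left out (adjusted p up to 0.272) and with no filter on dim probes or all detected probes, and the Slc7a4 call without any 2N or 3N control array (0.0638 to 0.267) and with the authors' values or no background correction. With median scaling neither control call was kept, and without the 2N control array of experiment 1 or 3 or the 3N control array of experiment 2 none of the 37 was called. With experiment as a block 4 were called for 3N minus 2N after knockdown, with Slc16a13 (−0.41, adjusted p = 0.0389), Slc7a6 (−0.39, 0.034) and Slc16a6 (0.86, 0.0104) beside Slc7a4. Slc16a4 lay between the other fractions in 3N cells, 0.63 ± 0.20 above 4N cells after knockdown and 0.78 ± 0.20 above 4N cells in controls, without a call (adjusted p = 0.203 and 0.102). For 4N minus 3N, 0 of 37 transporters passed, beside 0.978% of all genes after knockdown and 0.763% in controls. At an unadjusted p under 0.05 (limma) there were 3 and 5 of the 37, beside 966 and 1049 of all 9306 genes. In controls, Slc16a4 was called for 4N minus 3N without the 3N control array of experiment 2 (−1.19, adjusted p = 0.0402) and for 3N minus 2N without that of experiment 1 (−1.09, 0.00476).

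The controls of experiment 2 weighed on Slc38a9, a lysosomal sensor of arginine in the mTORC1 pathway. It measured 6.24, 7.30 and 6.03 in 2N controls of experiments 1, 2 and 3, against 7.14, 6.93 and 7.24 in 2N knockdown cells, and was not called (0.58 ± 0.28, adjusted p = 0.17). Without the 2N control array of experiment 2 it was called higher in 2N knockdown cells (0.97, adjusted p = 0.00617), in 4N than in 2N controls (1.12, 0.00849) and in 3N than in 2N controls (1.37, 0.0115). The controls of experiment 2 were also higher in 3N (7.99 against 7.02) and 4N cells (7.67 against 7.21 and 6.86). Leaving out only the 2N array keeps these values without their partner, which widens both differences from 2N controls. Without the same array Slc6a6 was called higher in 2N knockdown cells (0.47, adjusted p = 0.0118) and Slc2a3 higher in 3N than in 2N controls (0.62, 0.0409). For Slc2a3 too, the 3N control of experiment 2 was the higher (11.55 against 11.22).

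Genes that act with the carriers were read from 5 lists of genes known from the literature. Cells under amino acid shortage switch on ATF4 targets, which include several transporters. Of 29 tested genes of this amino acid response, 6 rose and 4 fell in 2N cells, 3 rose and 1 fell in 3N cells, and 6 rose and 1 fell in 4N cells after knockdown. Over all genes tested 10.9%, 6.46% and 9.83% rose and 10.4%, 6.47% and 9.27% fell in 2N, 3N and 4N cells, the shares against which the counts of all 5 lists are read. The median log2 difference was 0.002, 0.023 and 0.126, beside −0.013, −0.013 and −0.009 over all genes. Ddit4, an inhibitor of mTORC1 signalling, rose by 1.05 ± 0.15, 0.76 ± 0.18 and 1.12 ± 0.15 in 2N, 3N and 4N cells, and the stress gene Atf3 by 1.29 ± 0.27 in 2N and 0.94 ± 0.27 in 4N cells. Psat1, an enzyme of serine synthesis, fell by 0.86 ± 0.11, 0.70 ± 0.13 and 0.57 ± 0.11, while Ddit3, a stress-induced transcription factor, rose by 0.94 ± 0.18 in 2N cells.

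Of 25 genes of amino acid sensing and mTORC1, 1 rose in 2N cells (Lamtor2, a Ragulator subunit, 0.35 ± 0.11), beside 10.9% of all genes, and 0 were called in 3N and 4N cells, with medians of 0.019, −0.064 and −0.014 in 2N, 3N and 4N cells. Among 11 transporter chaperones and trafficking genes (medians 0.221, 0.221 and 0.109), Arrdc4, an arrestin that draws glucose carriers inward, rose by 1.05 ± 0.12, 1.24 ± 0.17 and 1.28 ± 0.12 in 2N, 3N and 4N cells. Emb, a chaperone of monocarboxylate carriers, fell by 0.49 ± 0.12, 0.55 ± 0.14 and 0.71 ± 0.12, and Bsg, the other such chaperone, rose by 0.77 ± 0.20 in 4N cells. Of 19 genes of glycolysis and lactate, 3 rose and 2 fell in 2N, 1 rose and 1 fell in 3N, and 4 rose and 2 fell in 4N cells, beside 10.9% and 10.4%, 6.46% and 6.47%, and 9.83% and 9.27% of all genes, with medians of 0.024, −0.041 and −0.002. The muscle isoforms Eno3 and Pgam2 rose by 1.29 ± 0.10 and 1.51 ± 0.22 in 2N and by 1.52 ± 0.10 and 1.07 ± 0.22 in 4N cells, and Pfkp, a phosphofructokinase, fell by 0.58 ± 0.14 and 0.44 ± 0.14. Of 13 genes of glutamine and glutamate metabolism, 3 fell in 2N, 2 in 3N and 3 in 4N cells and 0 rose, beside 10.4%, 6.47% and 9.27% of all genes that fell, with medians of −0.117, −0.079 and 0.009. Those were Glud1, which converts glutamate to a Krebs cycle acid (−0.95 ± 0.15, −0.59 ± 0.18 and −0.57 ± 0.15), Cad, which opens pyrimidine synthesis from glutamine (−0.77 ± 0.11, −0.61 ± 0.13 and −0.67 ± 0.11), and Ggct of glutathione turnover (−0.72 ± 0.16 in 2N and −0.60 ± 0.16 in 4N cells).

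**Figure D4:**
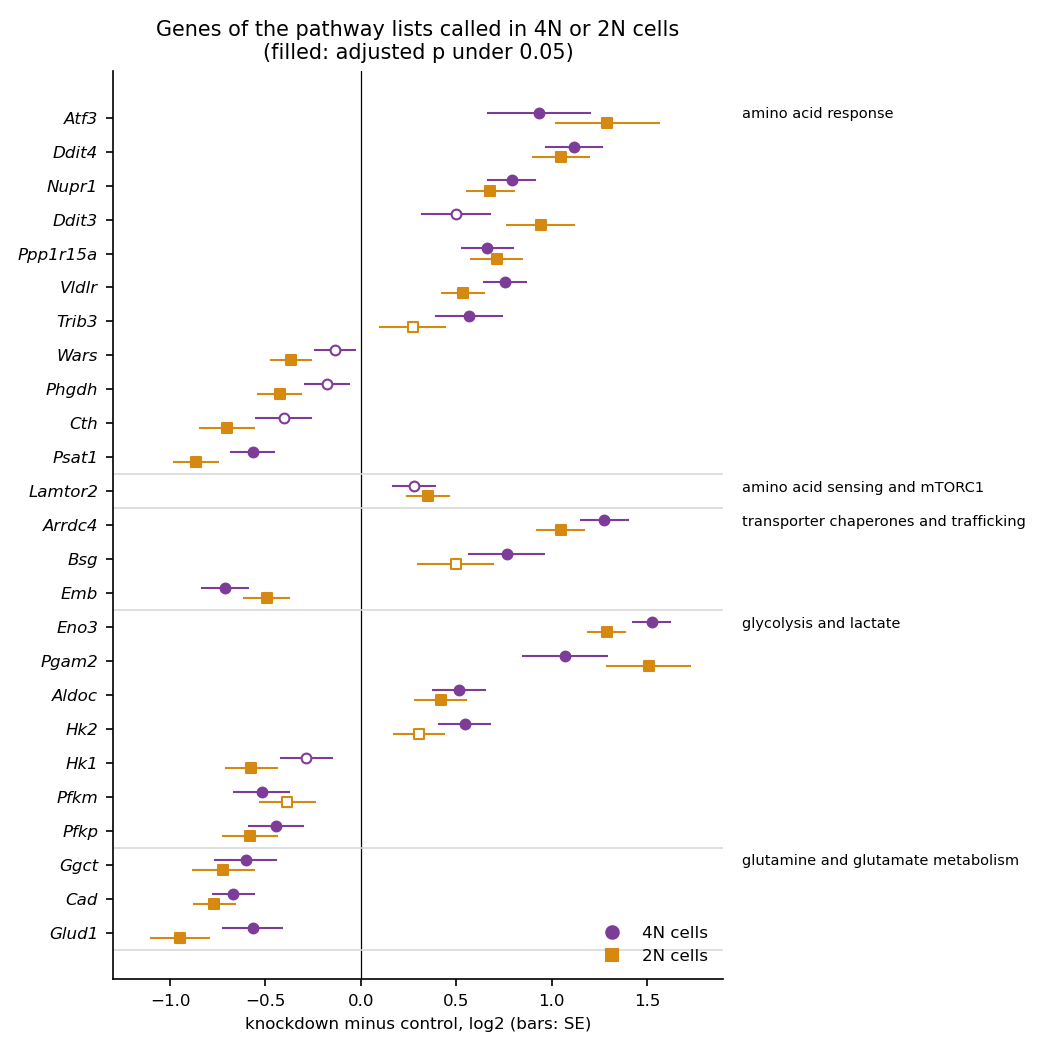
Log2 difference of knockdown minus control, with SE, for genes of the 5 pathway lists called in 4N cells (purple circles) or 2N cells (orange squares). Filled symbols passed an adjusted p of 0.05. Eno3, Pgam2, Arrdc4 and Ddit4 are among those above 1 in both fractions, and Glud1, Cad, Ggct, Psat1, Emb and Pfkp among those below 0 in both.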

How the data were processed

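RNA of 16 sorted samples, 1 array each, was hybridised to 1-colour Illumina MouseRef-8 v2 BeadChips. The authors deposited the mean intensity of each probe from GenomeStudio without normalization, and beside it a detection value, a fraction that equals 1 minus the detection p. They also deposited quantile-normalized intensities, used as an alternative. The sources used here give no genome build.

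Intensities were background corrected with limma's normexp model (offset 16), taken to log2 and quantile normalized over 16 arrays (limma 3.58.1, R 4.3.3). A probe stayed in a fit if at least 3 of the fit's arrays had its detection p below 0.05, and the probe with the highest mean stood for its gene (9146 genes with the 12 arrays of the 2N and 4N fractions, 9306 with 16). Each group had 1 mean. Contrasts with 3N cells came from the 16-array fit. p-values were adjusted by Benjamini-Hochberg over all genes with a threshold of 0.05. The pipeline was tested on simulated data. The number of arrays limits the precision. Errors are SE from limma.

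The labels number the experiments, so equal numbers share an experiment, and deviations of same-numbered arrays from their group means correlated at 0.035 to 0.494. The fit with experiment as a block was an alternative. Members and gene lists were chosen with earlier results of these data known. Genes called after knockdown or for 4N minus 2N were named with array values, up to 4 called genes a pathway list, and of the rest mostly 1 or 2 bright genes a family. Slc16a3 and Slc7a11 were outside that rule, since Slc16a9 and Slc7a3 were brighter. Slc38a9, Slc7a6 and the second probes were chosen after their values were seen.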

Additional observations from a re-analysis of the deposited data

How the results depend on the processing

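No direction was reversed among 23 gene results. Their calls were the same in 433 repeats, lost in 16 with all arrays kept and in 61 with 1 array left out. After knockdown in 4N cells 8 transporter genes were called in place of 5 without background correction, with the authors' values or with all 16 arrays in the fit, and 10 (6 higher, 4 lower) with experiment as a replicate block. In 3N cells the count of 6 became 3 with median scaling or no filter on dim probes and 10 (6 higher, 4 lower) with the block, and in 2N cells 5 became 8 (3 higher, 5 lower) with the block. For 4N minus 2N in controls 2 became 4, and for 3N minus 2N after knockdown 1 became 4, with the block. For 3N minus 2N in controls 2 became 1 without background correction, with the authors' values, with no filter or with all detected probes, and 0 with median scaling. In 3N knockdown cells Slc2a1 and Slc38a7 were not called with median scaling, no filter or all detected probes. The block changed no call besides those named beside the results and Slc2a4 in 3N minus 2N controls (lower, adjusted p = 0.0437).

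Higher and lower calls stood at 4 and 1 in 4N knockdown cells, 3 and 3 with median scaling and 5 and 3 without background correction; in 2N cells at 3 and 2, against 2 and 2 and 3 and 3; in 3N cells at 5 and 1, against 2 and 1 with median scaling.

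With 1 array left out, counts ran from 3 (4N knockdown array of experiment 3) to 8 (2N control array of experiment 2) in 4N cells, from 2 (3N knockdown array of experiment 1) to 6 in 3N cells and from 3 (2N knockdown array of experiment 1 or 2) to 7 in 2N cells after knockdown, from 2 to 2 and from 2 to 3 for 4N minus 2N after knockdown and in controls, from 1 to 2 and from 0 to 2 for 3N minus 2N, from 0 to 0 and from 0 to 1 for 4N minus 3N, and from 0 to 0 for each difference between fractions. Without 1 array, genes not called otherwise passed in 4N cells after knockdown (Slc2a3 without the 2N control of experiment 1 or 2 or the 4N control of experiment 3, Slc7a2 without the 2N control of experiment 1 or the 4N control of experiment 2, Slc38a7 without the 2N or 4N control of experiment 2, Slc7a5 without the 2N control of experiment 2 and Slc1a3 without the 4N knockdown array of experiment 1; adjusted p = 0.0146 to 0.0482), and in 2N cells Slc2a3 without the 2N control of experiment 1 (0.0283) and Slc7a5 without that of experiment 3 (0.0469). A block for the slide was not run, since the sources name no slides. Signals near background, as for Slc16a4 in 4N controls, limit the size of a fold.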
